A study of Mus musculus with 6 samples.

Results

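The matrix metalloproteases (MMPs), the ADAMTS proteases and their tissue inhibitors (TIMPs) were described in CD8 T cells sorted from mouse tumours. The members were the rows of the deposited count table whose symbol is Mmp, Adamts or Timp followed by a number, which gave 46 genes of 40879: 23 MMPs, 19 ADAMTS and 4 TIMPs. The cells came from MC38-hPD-L1 tumours grown for 12 days in C57BL/6N mice, MC38 being a colon carcinoma line. A deep-red photocatalyst had tagged cells close to it with biotin, and flow cytometry parted tagged CD8 T cells (Biotin+, called tumour-neighbouring in the labels) from untagged ones (Biotin-, called tumour-distal). Each group held 3 poly-A RNA libraries, and both groups shared the strain, the tumour and the sort for CD8. The labels name no genetic change in the mice and do not say whether replicates were separate animals or pools, so the p-values measure the spread between these libraries.

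MMPs are zinc proteases made as inactive precursors that cut collagens, gelatin, elastin and other matrix proteins once their propeptide is removed. ADAMTS proteases are secreted relatives that carry thrombospondin repeats and trim proteoglycans and procollagens. TIMPs bind the active site of these enzymes and block it. In tumours fibroblasts and macrophages are known sources of many of them, whereas T cells are known to make few.

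The gene positions that the symbols do not show were read from RefSeq (GRCm38.p6, another build than the GRCm39 named in the submitters' processing notes). A run of 10 MMP genes, Mmp13, Mmp12, Mmp1b, Mmp3, Mmp1a, Mmp10, Mmp8, Mmp27, Mmp20 and Mmp7, lies side by side on chromosome 9 with no other protein-coding gene between them. RefSeq promoter windows, 250 bases before to 50 after each start, were at hand for 32 of the 46 members, including these 10 (Mmp12 and Mmp7 have 2 windows each). The AP-1 motif TGANTCA, which reads alike on both strands and binds Fos and Jun dimers, was present in 8 of the 10 clustered genes and in 0 of the other 22. The same 8 genes, the exceptions being Mmp8 and Mmp27, held TATAAA on the coding strand in the same window, and so did 2 of the other 22 genes without the AP-1 motif. Over all 32851 windows, 7.81% held TGANTCA, 8.32% TATAAA and 0.995% both. GGGCGG or its complement CCGCCC, the GC box, stood in 0 of the 10 clustered genes, in 18 of the other 22 and in 35.7% of all windows. A match describes letters and is no evidence of binding. The distance from the annotated start varied. TATAAA began at base -29 in Mmp10, -28 in Mmp1a, -16 in Mmp13 and -7 in Mmp3. In Mmp12 it began at base 5, after the start. Mmp7 held a further TATAAA before its AP-1 motif. The other window of Mmp12 and that of Mmp7 held neither motif. The stretches below show the order of motifs, 5′ to 3′ on the coding strand, with the AP-1 motif first and TATAAA second, both in capitals. They are chr9:7272469-7272507 for Mmp13, chr9:7347320-7347387 for Mmp12, chr9:7445766-7445824 for Mmp3, chr9:7464058-7464122 for Mmp1a, chr9:7502269-7502322 for Mmp10 and chr9:7692017-7692073 for Mmp7, all on the plus strand of GRCm38.p6.
Mmp13: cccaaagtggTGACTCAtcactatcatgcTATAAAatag
Mmp12: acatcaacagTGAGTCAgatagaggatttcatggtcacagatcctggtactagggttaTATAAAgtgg
Mmp3: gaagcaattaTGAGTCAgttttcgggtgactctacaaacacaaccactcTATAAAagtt
Mmp1a: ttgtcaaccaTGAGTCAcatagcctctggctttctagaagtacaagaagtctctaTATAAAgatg
Mmp10: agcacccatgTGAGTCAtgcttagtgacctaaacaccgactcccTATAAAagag
Mmp7: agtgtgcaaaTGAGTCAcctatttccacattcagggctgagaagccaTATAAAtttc

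For contrast, the 90 bases before the start are given for 3 members outside the cluster, with GC boxes in capitals: the membrane protease Mmp14 (chr14:54431508-54431597, plus strand), the inhibitor Timp2 (chr11:118355412-118355501, minus strand) and the procollagen protease Adamts14 (chr10:61273420-61273509, minus strand), all GRCm38.p6.
Mmp14: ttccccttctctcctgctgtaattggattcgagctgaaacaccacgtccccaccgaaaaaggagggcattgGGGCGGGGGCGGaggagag
Timp2: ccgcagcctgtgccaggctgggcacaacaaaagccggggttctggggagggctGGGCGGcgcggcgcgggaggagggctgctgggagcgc
Adamts14: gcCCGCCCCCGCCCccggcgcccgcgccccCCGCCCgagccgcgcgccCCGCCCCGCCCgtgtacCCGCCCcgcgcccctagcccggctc

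Library totals were 16440614 to 19640693 counts in Biotin+ and 16423106 to 19035864 in Biotin-. A CD8 T cell list held 17 genes, among them Zap70, Cd3g and Thy1. Of the 17, 5 were higher in Biotin+ (13 with the replicate block described below), where the shares of all tested genes were 1.53% and 5.6%. The list had summed levels of 9409 to 12499 CPM in Biotin+ and 5096 to 7372 CPM in Biotin-. CPM is the count scaled to a library of 1000000 after TMM normalisation. Fibroblast and pericyte markers, 19 genes such as Col1a1 and Dcn, summed to 246, 219 and 498 CPM in Biotin+ replicates 1, 2 and 3, against 1937, 1435 and 1965 CPM in Biotin- replicates 1, 2 and 3. Macrophage and monocyte markers, 16 genes such as Csf1r and C1qa, summed to 1678, 1628 and 580 CPM in Biotin+, against 4270, 1251 and 1471 CPM in Biotin-. In such bulk libraries, fewer cells of a type and less RNA per cell cannot be told apart.

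The Biotin+ libraries held less RNA of the gelatinase Mmp2, its activator Mmp14, all 3 detected TIMPs, Mmp11, Adamts1, Adamts2 and Adamts7, by 2.72 to 6.46-fold. Adamts12, the tenth lower gene, reached the low-count filter's CPM level in no Biotin+ library. Adamts6, Adamts10 and Adamts14 and the membrane-anchored Mmp17 and Mmp25 had positive fold changes under TMM scaling, none of which passed the test. Of the 46 members, 24 had enough reads to be tested (edgeR's quasi-likelihood test over all 13360 genes that passed the low-count filter, Benjamini-Hochberg adjustment, threshold 0.05). Among the 24, 10 were lower in Biotin+, 0 were higher and 14 did not pass. Over all tested genes 6.72% were lower and 1.53% higher. The median log2 fold change, Biotin+ over Biotin-, was -1.85 for the tested members and 0.06 for all tested genes. At an unadjusted p below 0.05, 16 members were lower and 1 higher, where the shares of all genes were 13.9% and 8.62%. DESeq2 called 14 lower and 1 higher, beside 10.4% and 3.53% of all genes. The CPM ranges did not overlap and were lower in Biotin+ for 15 members, where the share of all tested genes was 15.9%, and higher in Biotin+ for 2 members, where it was 13.4%. Of the 24, 5 reached the filter's CPM level in fewer than 3 Biotin+ libraries. Adamts4, Adamts8, Adamts12 and Mmp23 reached it in all 3 Biotin- libraries, so a difference was partly built into their being tested, and Adamts5 reached it in 1 Biotin+ and 2 Biotin- libraries.

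Replicates with the same number deviated together across genes, so a fit with the replicate number as a block was also made. It called 14 members lower (12% of all genes) and 2 higher (5.6% of all genes). The 4 added lower members were Mmp12, Mmp13, Mmp28 and Adamts4, and the higher ones were Adamts14 and Mmp25. Without Biotin- replicate 3, 5 members were lower and 0 higher in the fit without the block, and the shares of all genes were 1.79% lower and 0.172% higher.

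**Figure D1:**
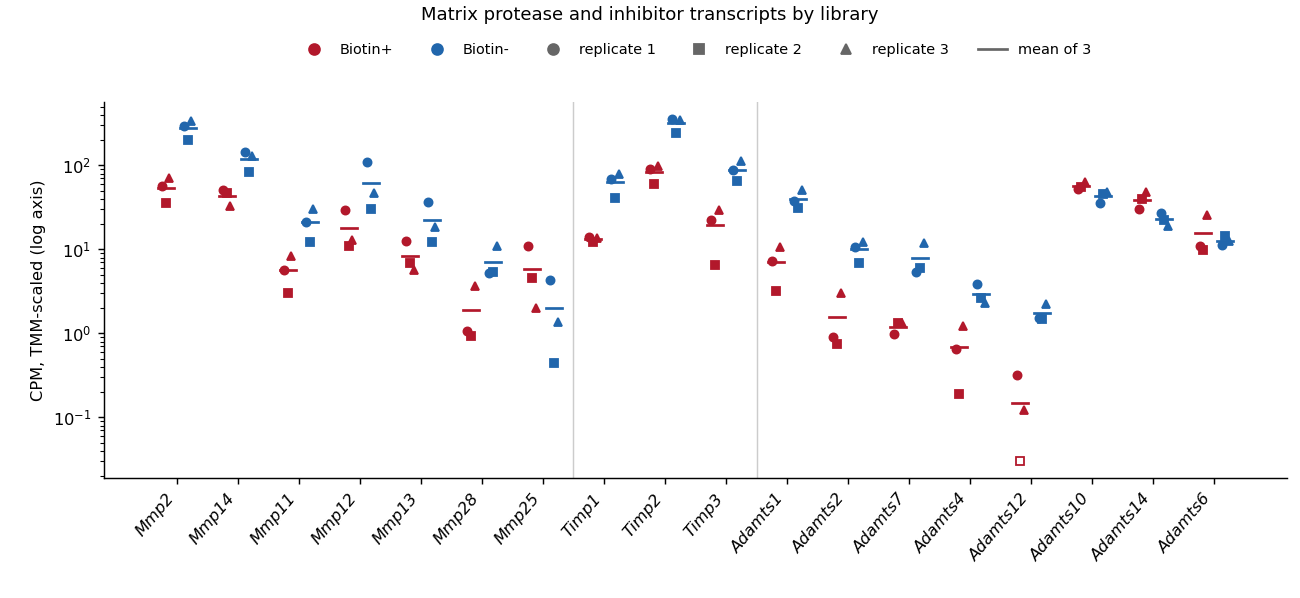
TMM-scaled CPM (log axis) of 18 genes in each library, with Biotin+ in red left of Biotin- in blue, a symbol per replicate number and a bar at the mean of 3. The open square marks Adamts12 in Biotin+ replicate 2, whose value is 0 and which is drawn near the lower edge. All Biotin+ points of Mmp2, Mmp14 and the 3 TIMPs lie below all Biotin- points, whereas those of Adamts10 and Adamts14 lie above.

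The gelatinases Mmp2 and Mmp9 degrade denatured collagen and basement membrane collagen. Mmp2 was at 56.4, 35.5 and 70.5 CPM in Biotin+ replicates 1, 2 and 3, against 292, 203 and 334 CPM in Biotin- replicates 1, 2 and 3. The highest Biotin+ library lay far below the lowest Biotin- library. The log2 fold change was -2.35 ± 0.29 (SE, edgeR adjusted p = 0.00554), and the call was made without each of the 6 libraries in turn (adjusted p 0.00227 to 0.0323). Mmp9 was at 3.07, 2.94 and 4.00 CPM in Biotin+ and 5.64, 4.61 and 8.11 CPM in Biotin-. Its ranges did not overlap, but its log2 fold change of -0.87 ± 0.38 (SE) did not pass (edgeR adjusted p = 0.197).

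Mmp14 encodes the transmembrane protease MT1-MMP, which activates the Mmp2 precursor at the cell surface with Timp2 as a bridge. It was at 51.5, 46.6 and 32.7 CPM in Biotin+, against 144, 83.4 and 128 CPM in Biotin-. The groups did not overlap (log2 fold change -1.44 ± 0.26 SE, edgeR adjusted p = 0.00995). It too was called without each library in turn. The other transmembrane MMPs were nearly silent. Mmp15 had 7 counts over the 3 Biotin+ libraries and 16 over the 3 Biotin- libraries, and Mmp16 and Mmp24 had 0 in all 6.

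TIMPs were represented by Timp1, Timp2 and Timp3, all lower in Biotin+, while Timp4 had no count in any library. Timp1, a secreted inhibitor of most MMPs, was at 14.2, 12.2 and 13.6 CPM in Biotin+ and at 68.9, 41.3 and 78.3 CPM in Biotin-. The Biotin+ libraries were close to each other and the groups well apart (log2 fold change -2.24 ± 0.27 SE, edgeR adjusted p = 0.00554). Timp2 was at 90.8, 59.8 and 97.8 CPM in Biotin+, against 359, 245 and 346 CPM in Biotin-. In both groups replicate 2 was the lowest library (log2 fold change -1.93 ± 0.25 SE, edgeR adjusted p = 0.00577).

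Timp3, which is held in the matrix and also inhibits ADAMTS and ADAM proteases, was at 22.4, 6.5 and 29.3 CPM in Biotin+, against 88.5, 64.5 and 113 CPM in Biotin-. The fitted difference was -2.19 ± 0.45 on the log2 scale (SE, edgeR adjusted p = 0.0176), and leaving out Biotin- replicate 3 took the adjusted p to 0.0774, past the threshold. Of the annotated exon bases of Timp3, 21.3% lie under exons of the antisense gene Syn3, and the strand setting of the counting is not given in the sources used here.

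The collagenase Mmp13 and the macrophage elastase Mmp12, neighbours on chromosome 9, were the only clustered genes with enough reads to be tested. Mmp12 was at 29.7, 11.1 and 12.9 CPM in Biotin+, against 110.0, 30.3 and 46.9 CPM in Biotin-. Replicate 1 was the highest library of both groups, and the groups came near each other only at Biotin+ replicate 1 and Biotin- replicate 2. The log2 fold change of -1.80 ± 0.50 (SE) missed the threshold (edgeR adjusted p = 0.0559), and passed with the replicate block (2.81e-05) and without Biotin+ replicate 1 or Biotin- replicate 2 (0.0351 and 0.0335). Without Biotin- replicate 1 it was -1.11. Mmp13 was at 12.6, 6.81 and 5.75 CPM in Biotin+, against 37.1, 12.3 and 18.4 CPM in Biotin-. Here too replicate 1 was the highest in both groups, and the groups overlapped slightly. Its log2 fold change of -1.43 ± 0.43 (SE) had an edgeR adjusted p of 0.0727, and 0.00128 with the block. It passed without Biotin+ replicate 1 or Biotin- replicate 2 (0.0450 and 0.0429). Summed macrophage and monocyte markers were highest in replicate 1 of Biotin-, while in Biotin+ replicates 1 and 2 were close (1678 and 1628 CPM). The part of those cells in the Mmp12 and Mmp13 values was not tested.

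The remaining 8 genes of the cluster, all with an AP-1 motif except Mmp8 and Mmp27, had few or no reads. Mmp10 (stromelysin 2) had 1 count over the 3 Biotin+ libraries and 46 over the 3 Biotin- libraries (23, 3 and 20). The pooled level was 41.0 times higher in Biotin-, with a counting interval of 7.0 to 1654 (exact binomial, 95%). That interval covers counting error only and leaves out the spread between libraries. Mmp3 (stromelysin 1) had 10 counts in Biotin+ and 30 in Biotin-, and Mmp8, the neutrophil collagenase, 14 and 27. Mmp27 had 0 in Biotin+ and 14 in Biotin-, all in replicate 1. Mmp1b had 0 and 3, and Mmp1a, Mmp7 and Mmp20 had no count. The motif is thus shared by genes with reads in these libraries and by genes without any.

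Among the other secreted MMPs, Mmp11 (stromelysin 3), an enzyme known from the stroma of carcinomas, was at 5.66, 3.0 and 8.42 CPM in Biotin+ and at 21.1, 12.3 and 30.4 CPM in Biotin-. The groups did not overlap, and replicate 3 was the highest library of both (log2 fold change -1.90 ± 0.43 SE, edgeR adjusted p = 0.0241). The call ended on leaving out Biotin+ replicate 1, Biotin+ replicate 2, Biotin- replicate 1 or Biotin- replicate 3 (adjusted p 0.0603, 0.0791, 0.0536 and 0.117). Mmp28 (epilysin) was at 1.08, 0.938 and 3.69 CPM in Biotin+, against 5.25, 5.37 and 10.9 CPM in Biotin-. It did not pass (log2 fold change -1.91 ± 0.58 SE, edgeR adjusted p = 0.0711), and did with the block (0.00108). Without Biotin+ replicate 3 it was -2.82 and passed (adjusted p = 0.00725). Of the exon bases, 5.58% of those of Mmp11 and 12.0% of those of Mmp28 lie under exons of antisense genes.

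Mmp19 showed a pattern by replicate rather than by group. It was at 10.6, 5.13 and 3.15 CPM in Biotin+ and at 12.4, 4.94 and 3.14 CPM in Biotin-, nearly the same values for each replicate number. Its log2 fold change was -0.11 ± 0.56 (SE, edgeR adjusted p = 0.932), with 28.3% of its exon bases under exons of the antisense genes Gm47093 and Tmem198b.

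Neither of the MMPs held in the membrane by a lipid anchor, Mmp17 and Mmp25, passed in the fit without the block. Mmp17 was at 2.27, 4.00 and 3.03 CPM in Biotin+ and at 2.58, 2.69 and 3.14 CPM in Biotin-, and its log2 fold change of 0.14 ± 0.43 (SE) did not pass (edgeR adjusted p = 0.883). Mmp25, known as leukolysin and found in human neutrophils, was at 10.9, 4.56 and 2.0 CPM in Biotin+, against 4.28, 0.439 and 1.35 CPM in Biotin-. Replicate 1 was the highest library of both groups, and within each replicate number Biotin+ was above Biotin-. The log2 fold change was 1.52 ± 0.78 (SE, edgeR adjusted p = 0.288), and 1.64 with the block (adjusted p = 0.0282). It ranged from 0.69 without Biotin+ replicate 1 to 2.69 without Biotin- replicate 1, neither of which passed. Neutrophil markers, 13 genes of which 4 were tested and 0 passed (1 at an unadjusted p below 0.05 and 1 by DESeq2, both Il1r2, higher, which the block also called at 0.00132), summed to 61.4, 63.9 and 32.0 CPM in Biotin+ and to 31.3, 33.5 and 11.7 CPM in Biotin-, with Elane at 0 throughout. Il1r2 alone was at 53.4, 44.3 and 28.2 CPM in Biotin+ and at 20.6, 27.5 and 8.76 CPM in Biotin-, so these sums mostly followed this gene. The part of neutrophils in the Mmp25 values was not tested. Mmp23, a membrane protease with its own domain layout, was low (0.108 to 1.27 CPM in Biotin+, 0.757 to 1.07 CPM in Biotin-) and did not pass.

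**Figure D2:**
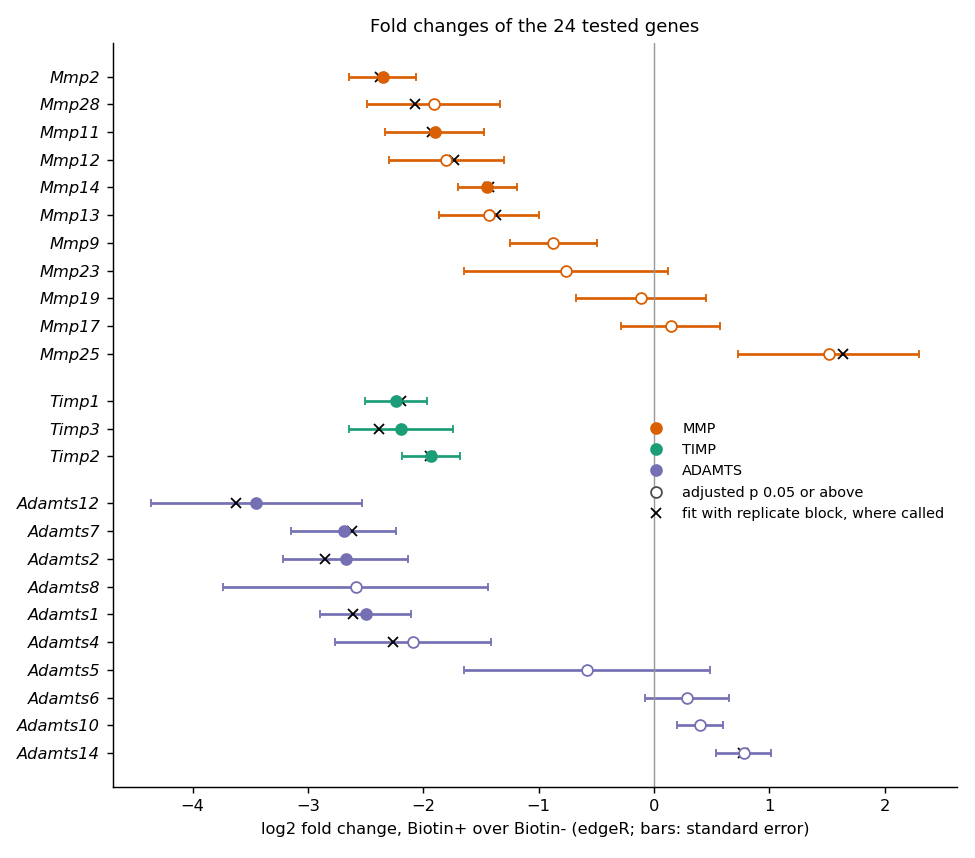
Log2 fold changes, Biotin+ over Biotin-, of the 24 tested genes by family (edgeR, bars are standard errors); filled circles passed an adjusted p of 0.05, and crosses give the value of the fit with the replicate block where it passed there. All 3 tested TIMPs are filled and lie between -2.24 and -1.93, whereas MMPs and ADAMTS spread to both sides of 0.

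ADAMTS genes divided into members that were lower and members that were not. Among the procollagen N-proteinases, which cut the N-terminal propeptide from fibrillar collagens, Adamts2 was at 0.917, 0.750 and 3.03 CPM in Biotin+ and at 10.8, 6.80 and 12.4 CPM in Biotin-. Every Biotin- library exceeded every Biotin+ library (log2 fold change -2.67 ± 0.54 SE, edgeR adjusted p = 0.0166). Leaving out Biotin+ replicate 2 or Biotin- replicate 3 ended the call (adjusted p 0.0635 and 0.0768), and without Biotin+ replicate 3 the log2 value was -3.57. Its relative Adamts14 stood the other way round, at 30.4, 39.6 and 47.7 CPM in Biotin+ and 27.1, 22.2 and 19.2 CPM in Biotin-. Its groups did not overlap either, but the log2 fold change of 0.78 ± 0.24 (SE) missed the threshold (edgeR adjusted p = 0.0764) and passed with the block (0.0349). With libraries scaled to the CD8 T cell genes the value was 0.05. Adamts3, the third of this kind, had 14 counts in Biotin+ and 4 in Biotin-.

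The proteoglycan-cleaving ADAMTS were led by Adamts1, which cuts versican and aggrecan. It was at 7.23, 3.19 and 10.7 CPM in Biotin+, against 37.7, 31.1 and 50.7 CPM in Biotin-, with no overlap. Its log2 fold change was -2.50 ± 0.40 (SE, edgeR adjusted p = 0.00770), and it was called without each library in turn (adjusted p 0.00249 to 0.0366). Adamts4, an aggrecanase, was at 0.647, 0.188 and 1.21 CPM in Biotin+ and at 3.89, 2.63 and 2.27 CPM in Biotin-, and passed with the block (edgeR adjusted p = 0.0905, and 0.0276 with the block). It also passed without Biotin+ replicate 3 (0.0342). Adamts5, the other main aggrecanase and the gene next to Adamts1 on chromosome 16, reached only 0 to 1.45 CPM in Biotin+ and 0.384 to 1.57 CPM in Biotin-, with overlapping groups (edgeR adjusted p = 0.799). Adamts8 had 7 counts in Biotin+, all in replicate 1, and 48 in Biotin-, and missed the threshold (edgeR adjusted p = 0.212). Leaving out Biotin+ replicate 1, which left no Biotin+ count, took the adjusted p to 0.0442. Adamts15, its neighbour on chromosome 9, had 0 counts in Biotin+ against 20, 7 and 12 in Biotin-, at least 11.6-fold lower when the Biotin+ group is set to a floor of 3 counts.

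Adamts7 and Adamts12, a related pair that cut cartilage oligomeric matrix protein, were both lower in Biotin+. Adamts7 was at 0.971, 1.31 and 1.33 CPM in Biotin+, against 5.35, 6.09 and 12.0 CPM in Biotin-. The Biotin+ libraries lay close together (log2 fold change -2.69 ± 0.45 SE, edgeR adjusted p = 0.00837, and 0.0512 without Biotin- replicate 3). Adamts12 rested on few reads, with 6, 0 and 2 counts in Biotin+ and 31, 27 and 41 counts in Biotin-. Its log2 fold change was -3.45 ± 0.91 (SE, edgeR adjusted p = 0.0440), and of the 6 ways to leave out a library it was called only without Biotin+ replicate 1 (-4.67).

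Adamts10 and Adamts6, relatives linked to fibrillin microfibrils, were not called with TMM scaling, with or without the block. Adamts10 was at 51.8, 54.9 and 63.7 CPM in Biotin+ and at 35.9, 45.3 and 48.1 CPM in Biotin-. The groups did not overlap, yet the log2 fold change of 0.40 ± 0.20 (SE) did not pass (edgeR adjusted p = 0.278), and it was -0.33 with libraries scaled to the CD8 T cell genes. Adamts6 was at 11.0, 9.94 and 25.7 CPM in Biotin+ and at 11.4, 14.4 and 12.4 CPM in Biotin-. Biotin+ replicate 3 stood above the other 5 libraries, and the value of 0.29 ± 0.37 (SE, edgeR adjusted p = 0.697) was -0.28 without it and -0.39 with CD8 T cell scaling. Adamts10, Adamts14 and Adamts6 were grouped after their values were seen, so a larger share in Biotin+ was fixed by that choice. They held 89.0%, 94.9% and 88.0% of all ADAMTS CPM in Biotin+ replicates 1, 2 and 3, against 53.7%, 61.7% and 48.7% in Biotin-.

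The other ADAMTS were scarcely read. Adamts13, which cleaves von Willebrand factor, had 2 counts in Biotin+ and 1 in Biotin-, and Adamts9 had 13 and 35. Adamts17 had 0 counts in Biotin+ and 27 in Biotin-, at least 8.02-fold lower by the same floor, and Adamts16 had 0 and 10, all 10 in Biotin- replicate 1. Adamts18, Adamts19 and Adamts20 had 0 counts in Biotin+ and 5, 3 and 4 in Biotin-. Mmp21 was alone in having counts only in Biotin+, 6 of them in replicate 3. In all, 22 members were not tested, 6 of them without any count, and each Biotin+ library had a count for 25 to 29 of the 46 members against 34 or 35 in each Biotin- library. Among all 40879 genes, the number with a count was 15780 to 16213 per Biotin+ library and 18142 to 18477 per Biotin- library.

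Levels of different genes were compared per length, as CPM per kilobase of annotated exon (GENCODE M21). In Biotin+ the order of the means was Timp2 (21.3), Mmp2 (16.1), Timp1 (15.0), Adamts14 (7.55), Mmp14 (7.32) and Adamts10 (6.88), and the first 3 overlapped each other across libraries, as did the last 3. In Biotin- it was Mmp2 (82.0), Timp2 (81.2), Timp1 (70.8), Mmp14 (19.9) and Timp3 (10.9), with the first 3 overlapping each other. Adamts14 ranked 4 in Biotin+ and 11 in Biotin-. The MMPs together summed to 43.2, 27.8 and 38.1 CPM per kilobase in Biotin+, against 157, 93.1 and 153 in Biotin-. ADAMTS sums were nearer each other, at 15.5, 16.5 and 23.2 in Biotin+ and 21.7, 20.2 and 25.1 in Biotin-, with overlapping groups.

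Ratios between genes within a library do not depend on how libraries are scaled. Of 25 ratios computed, those given here were compared by a two-sided exact permutation test of the log2 ratio, which cannot go below p = 0.1 with 3 libraries against 3 (0.385 after adjustment over the 25). Adamts14 over Adamts2, per kilobase, was 59.5, 94.9 and 28.3 in Biotin+, against 4.51, 5.87 and 2.79 in Biotin-. The groups lay well apart (difference 3.69 on the log2 scale, exact p = 0.1), as the opposite order of the groups in each of these genes already fixed. Timp2 over Mmp2 was 1.39, 1.46 and 1.20 in Biotin+, against 1.06, 1.04 and 0.894 in Biotin-, again without overlap (difference 0.43, exact p = 0.1). Ratios with other members differed in direction. All TIMPs over all MMPs were 0.974, 1.08 and 1.15 in Biotin+, against 1.15, 1.26 and 1.25 in Biotin-, and Timp2 over Mmp14 was 2.7, 1.96 and 4.58 in Biotin+, against 3.81, 4.49 and 4.12 in Biotin- (difference -0.51, exact p = 0.4), both with overlap. Mmp14 over Mmp2 was 0.517, 0.743 and 0.262 in Biotin+ and 0.279, 0.233 and 0.217 in Biotin-, where Biotin+ replicate 3 fell within the Biotin- range (difference 0.95, exact p = 0.2).

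**Figure D3:**
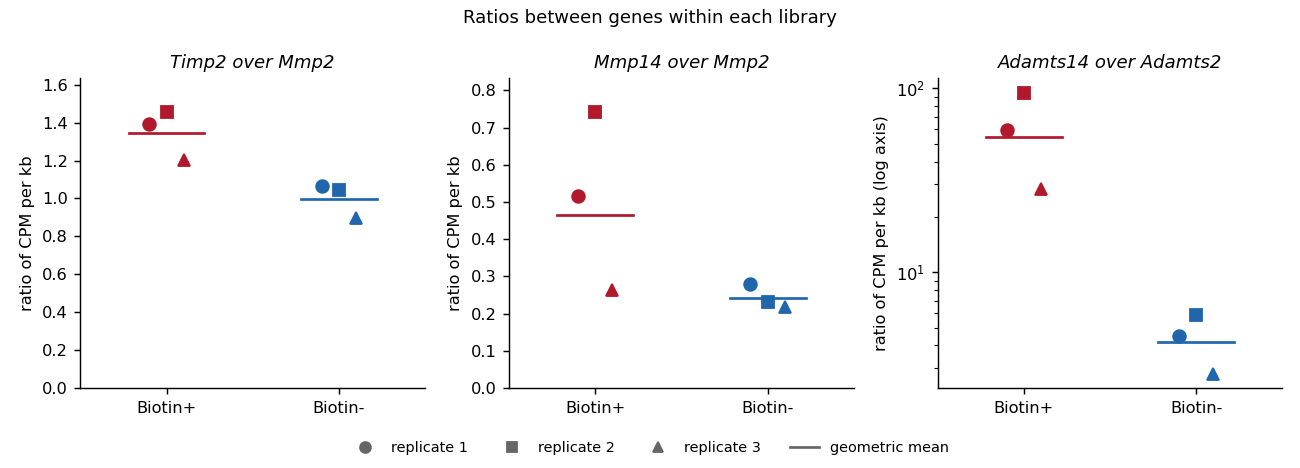
Ratios of CPM per kilobase between pairs of genes in each library (symbols by replicate number, bar at the geometric mean; the right panel has a log axis). Timp2 over Mmp2 runs from 1.20 to 1.46 in Biotin+ and from 0.894 to 1.06 in Biotin-, and Adamts14 over Adamts2 from 28.3 to 94.9 in Biotin+ and from 2.79 to 5.87 in Biotin-.

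Fibroblast and pericyte markers moved with the lower members. Of the 19 marker genes, 17 were tested, 13 were lower in Biotin+ (15 with the block, adding Pdgfrb and Acta2) and 0 higher. Over all tested genes 6.72% were lower, and 12% with the block. The median log2 fold change of the markers was -2.29, and none was without counts. The mean of Dcn, the proteoglycan decorin, was 22.4 ± 3.18 CPM over the Biotin+ libraries, against 125 ± 12.7 CPM over the Biotin- libraries (SD, n = 3 each), which is -2.48 ± 0.20 on the log2 scale (SE, edgeR adjusted p = 0.00213). The log2 values were -2.91 ± 0.32 for Col1a1 and -2.27 ± 0.31 for Col6a1 (SE), both collagen chains. Mmp2 amounted to 229, 162 and 142 CPM for every 1000 CPM of these markers in Biotin+, and to 151, 141 and 170 in Biotin-, with overlapping groups (exact permutation p = 0.6). Timp2 amounted to 369, 273 and 196 in Biotin+ and to 185, 171 and 176 in Biotin-, without overlap (exact permutation p = 0.1, the smallest possible).

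When libraries were scaled to the fibroblast and pericyte markers, 0 members were lower and 9 were higher in Biotin+. Under that scaling 86.3% of all tested genes were higher and 0.0973% lower, and the median over all genes moved to 2.54 on the log2 scale, 2.48 above its TMM value. The 9 were Mmp9, Mmp13, Mmp14, Mmp17, Mmp19, Mmp25, Adamts6, Adamts10 and Adamts14. Relative to the markers, the log2 values were 1.16 ± 0.53 for Mmp14 (SE, edgeR adjusted p = 0.0352), 1.18 ± 0.52 for Mmp13 and 3.20 ± 0.56 for Adamts14. Mmp2 (0.054 ± 0.54 SE), Timp3 (0.12 ± 0.52 SE) and Adamts1 (-0.19 ± 0.52 SE) lay within 1 SE of the markers. So did Timp1 (0.29 ± 0.51 SE), Timp2 (0.51 ± 0.55 SE), Mmp11 (0.46 ± 0.53 SE) and Mmp28 (0.29 ± 0.63 SE). The same held for Adamts2 (-0.47 ± 0.62 SE), Adamts4 (0.10 ± 0.82 SE), Adamts7 (-0.21 ± 0.65 SE) and Adamts8 (-0.10 ± 1.18 SE). With standard errors of this size, lying within 1 SE does not show that a gene followed the markers. Of the 10 members lower with TMM, Mmp14 was higher under this scaling and the other 9 did not pass. Mmp14 amounted to 210, 212 and 65.7 CPM for every 1000 CPM of the markers in Biotin+, and to 74.5, 58.1 and 65.3 in Biotin-. Biotin+ replicate 3 thus fell within the Biotin- range (exact permutation p = 0.2). With scaling to the CD8 T cell genes the median of all genes moved by -0.72, and 15 members were lower (24.7% of all genes) and 0 higher (0.187% of all genes), Mmp9 among the lower ones.

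**Figure D4:**
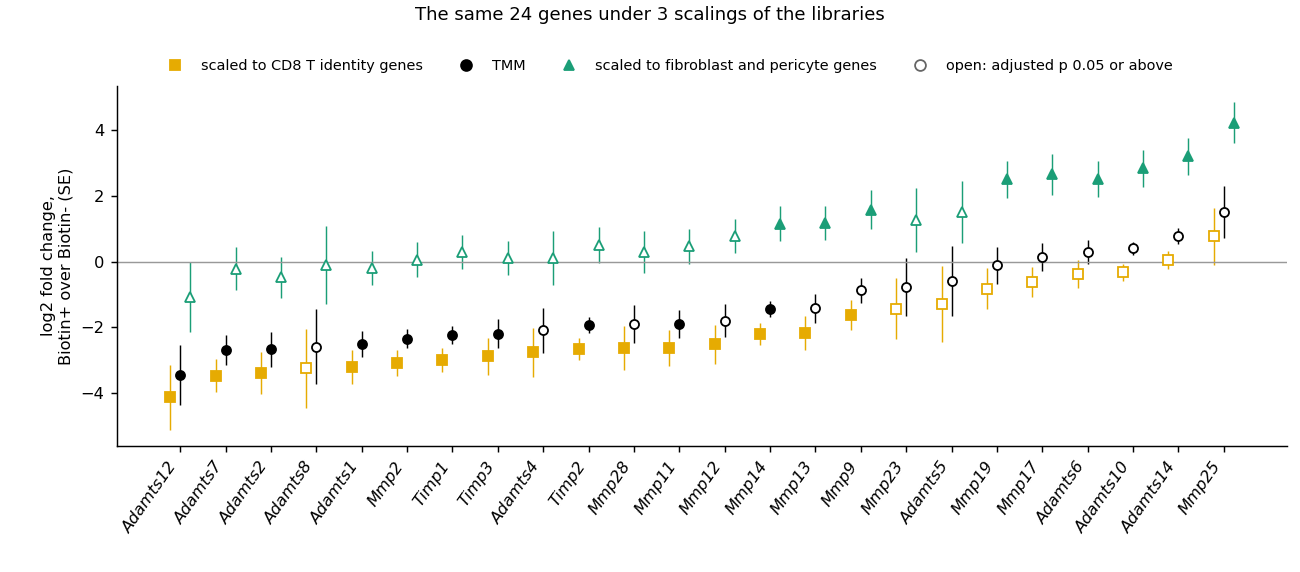
Log2 fold changes of the 24 tested genes, Biotin+ over Biotin-, with libraries scaled to CD8 T cell genes (squares), by TMM (circles) or to fibroblast and pericyte markers (triangles); bars are standard errors and filled symbols passed an adjusted p of 0.05. From Adamts12 to Mmp12 the triangles are open, and the 6 rightmost triangles, all filled, lie between 2.51 and 4.24.

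Macrophage and monocyte markers, of which 16 of 16 were tested and 0 passed, had a median log2 fold change of -0.93. With the block 4 were lower (12% of all genes). Mmp12 amounted to 17.7, 6.83 and 22.3 CPM for every 1000 CPM of these markers in Biotin+, against 25.8, 24.2 and 31.9 in Biotin- (exact permutation p = 0.1, the smallest possible). Mmp13 amounted to 7.52, 4.18 and 9.93 in Biotin+ and to 8.68, 9.86 and 12.5 in Biotin-, with overlap (exact permutation p = 0.3). The other 5 lists besides those of CD8 T cells and fibroblasts had 5 endothelial, 4 neutrophil, 4 epithelial, 7 dendritic and B cell and 4 mast cell genes tested. Over these and the macrophage list 0 genes passed. At an unadjusted p below 0.05, 6 were lower and 2 higher, where the shares of all genes were 13.9% and 8.62%. DESeq2 called 1 lower and 1 higher (10.4% and 3.53% of all genes). With the block 7 were lower and 2 higher (12% and 5.6% of all genes). The lower ones were the 4 macrophage genes, Pecam1 (endothelial), Siglech (dendritic) and Tpsb2 (mast cell), and the higher ones Il1r2 and the epithelial Cdh1. Endothelial markers summed to 13.4 to 28.2 CPM in Biotin+ and 27.8 to 40.5 CPM in Biotin-. Epithelial and tumour markers summed to 28.1 to 139 CPM in Biotin+ and 17.6 to 59.1 CPM in Biotin-, with Krt7, Krt20, Cldn3 and Cdx2 at 0. Cdh1 alone was at 129, 20.7 and 19.4 CPM in Biotin+ and at 51.8, 20.7 and 9.24 CPM in Biotin-. Epcam had a log2 fold change of -0.028. Dendritic and B cell markers summed to 56.1 to 160.0 CPM in Biotin+ and 60.3 to 107.5 CPM in Biotin-, and mast cell markers to 15.3 to 26.7 CPM in Biotin+ and 21.1 to 26.0 CPM in Biotin-. How much of each member's reads came from these cells was not tested.

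**Figure D5:**
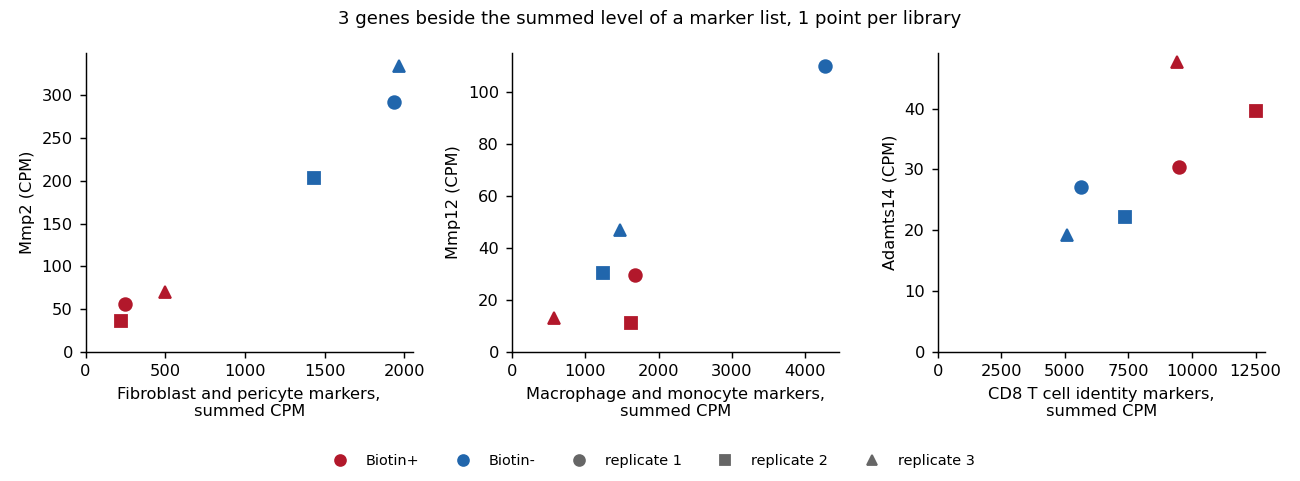
Mmp2, Mmp12 and Adamts14 (CPM) against the summed CPM of fibroblast and pericyte, macrophage and monocyte, and CD8 T cell markers, 1 point per library (red Biotin+, blue Biotin-, symbol by replicate number). The 3 Biotin- libraries have the highest Mmp2 and fibroblast marker levels, Biotin- replicate 1 has the highest Mmp12 and macrophage marker levels, and the 3 Biotin+ libraries have the highest Adamts14 and CD8 T cell levels.

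Partners of matrix proteolysis were counted in 7 lists with no member in them, chosen with earlier results of these data known. The lists held 78 genes, 4 of them also in the marker lists, and 54 were tested. Of these 19 were lower in Biotin+, 0 were higher and 35 missed the threshold. The lower ones were 35.2% of those tested, and over all genes 6.72% were lower and 1.53% higher. The median log2 value was -0.98. At an unadjusted p below 0.05, 29 were lower and 3 higher, where the shares of all genes were 13.9% and 8.62%. With the block 26 were lower and 3 higher (12% and 5.6% of all genes). Without Biotin+ replicate 2 the number lower was 12, beside 358 of all 13360 genes. With CD8 T cell scaling it was 32, beside 24.7% of all genes. Among the activators, 2 of 7 were lower: Plat, the tissue plasminogen activator, with a log2 fold change of -2.53 ± 0.34 (SE), and Plaur, the urokinase receptor, with -1.35 ± 0.32 (SE). In the list of other inhibitors and clearance receptors, which also held the procollagen protease enhancer Pcolce, 4 of 9 were lower. They included Pcolce itself at -2.28 ± 0.33 (SE) and Lrp1, a receptor that takes up protease and inhibitor complexes, at -1.94 ± 0.30 (SE).

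Among substrates, 5 of 9 were lower, with the basement membrane proteoglycan Hspg2 at -2.12 ± 0.24 (SE), tenascin C (Tnc) at -4.20 ± 0.54 (SE) and the ADAMTS substrate versican (Vcan) at -2.06 ± 0.35 (SE). Docking proteins gave 3 of 10 lower (5 with the block), Cav1, Sdc2 and Cd151, at -2.54 ± 0.39, -2.02 ± 0.32 and -1.63 ± 0.31 (SE). Lysosomal and other matrix proteases gave 3 of 9 lower (4 with the block, and Ctsd higher), Ctsl (-2.07 ± 0.26 SE), Htra1 (-2.34 ± 0.36 SE) and Htra3 (-1.90 ± 0.44 SE). Of the ADAMTS-like proteins, which lack the protease domain, 1 of 3 was lower (3 with the block), Adamtsl5 (-2.58 ± 0.44 SE). The ADAM sheddases, membrane relatives of ADAMTS that release surface proteins, had 1 of 7 lower, Adam15 (-1.33 ± 0.31 SE), and a median of 0.058. Adam19 (0.69 ± 0.21 SE, edgeR adjusted p = 0.0708) and Adam8 (0.56 ± 0.24 SE, edgeR adjusted p = 0.192) did not pass, and were higher with the block (adjusted p 0.0236 and 0.0495).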

How the data were processed

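Per the labels' protocols, poly-A RNA of sorted cells was fragmented and reverse transcribed from random hexamers; no molecular identifiers or strand setting are named. The authors deposited a table of whole-number counts, with gene symbols in rows and a column for each library. Trim Galore 0.6.7, STAR 2.7.10a, Picard 1.14, featureCounts 2.0.1 and GRCm39 are named, without roles, in the submitters' processing notes. Of 40879 genes, 18545 had no count. Reads are not independent molecules, so counting intervals and floors cover counting error only.

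The whole table was tested with edgeR 4.0.16 in R 4.3.3 (filterByExpr, TMM, robust glmQLFit, group alone), with Benjamini-Hochberg adjustment over 13360 genes. SE is the log2 fold change over the root of F. Replicate numbers in the titles were taken to pair libraries, since deviations from group means correlated at 0.366, 0.263 and 0.393 for equal numbers and at -0.276 to -0.0721 otherwise; the blocked value is given where it changes a member's call, and the blocked count where it moves a list's count by over 1.5 times. Alternatives were other scalings and filters, DESeq2 1.42.0, limma-voom (limma 3.58.1) and leaving out libraries; the procedure was tested on simulated data.

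Members and lists were chosen with earlier results of these data known. Tested members are named; libraries are listed for those called in either fit or averaging at least 10 CPM, other values being added where they show a pattern. Lists give up to 3 genes with the smallest p; 1 gene is not reported here. Exon lengths and overlaps come from GENCODE M21 (GRCm38), which matched all 46 members.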

Additional observations from a re-analysis of the deposited data

How the results depend on the processing

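The count of lower members was 10 with TMM, 9 to 11 with library size, upper quartile and DESeq2 size factors in edgeR, with a filter of CPM 1 in 3 libraries and with limma-voom, 14 with DESeq2 and with the replicate block, and 15 with scaling to CD8 T cell genes. It was 16 with no filter on low counts, where Mmp10 and Adamts15 were among them, 0 with scaling to fibroblast and pericyte genes, and 0 with scaling to macrophage and monocyte genes, an alternative chosen after seeing the data under which 0 of all 13360 genes passed. Leaving out 1 library gave 5 to 12, and a same-numbered pair 7 to 10. Over all genes the number lower was 1495 of 22334 with no filter. It was 239 to 1037 of 13360 when 1 library was left out. Higher members were 0 with TMM, 1 with no filter (Mmp25), 1 with DESeq2 (Adamts14), 2 with the replicate block, 9 with fibroblast scaling and 0 when any 1 library was left out. Pathway partners lower were 19 with TMM, 32 with CD8 T cell scaling, 1 with fibroblast scaling, 0 with macrophage scaling and 12 to 21 when 1 library was left out. Partners higher were 0 with TMM, 31 with fibroblast scaling, 3 with the replicate block, 1 with DESeq2 and 1 with limma-voom. Over all genes 24.7% were lower with CD8 T cell scaling and 0.0973% with fibroblast scaling. The shares higher were 86.3% with fibroblast scaling, 5.6% with the block and 3.53% with DESeq2, and limma-voom called 331 of 13360 higher.

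Signs turned for 28 of 477 single-gene values. With fibroblast scaling, positive log2 values were those of Adamts4 (0.10), Adamts5 (1.52), Mmp11 (0.46), Mmp12 (0.79), Mmp13 (1.18), Mmp14 (1.16), Mmp19 (2.51), Mmp2 (0.054), Mmp23 (1.27), Mmp28 (0.29), Mmp9 (1.58), Timp1 (0.29), Timp2 (0.51) and Timp3 (0.12). With macrophage scaling they were those of Adamts5 (0.67), Mmp19 (0.72) and Mmp23 (0.53). With CD8 T cell scaling, negative values were those of Adamts10 (-0.33), Adamts6 (-0.39) and Mmp17 (-0.62), and Mmp17 was at -0.088 with library size alone. Leaving out 1 library gave -0.28 to 0.49 for Adamts6 (negative without Biotin+ replicate 3), -0.11 to 0.33 for Mmp17 (negative without Biotin+ replicate 2) and -0.72 to 0.64 for Mmp19 (0.21 without Biotin+ replicate 3, 0.64 without Biotin- replicate 1). Without same-numbered pairs, Adamts6 was at -0.30 (pair 3), Mmp17 at -0.16 (pair 2) and Mmp19 at 0.036 (pair 1). The cause of these changes was not tested. The replicate block changed the call of 6 members, named in the report, and of no other member. Adamts5, Adamts8 and Mmp23, with under about 1 CPM, have standard errors of 0.88 to 1.15 on the log2 scale. Differences of that size could not be told from 0 in these libraries, and the larger value of Adamts8 (-2.59) did not pass either. Adamts12, at a mean of 0.94 CPM over the 6 libraries, was called at -3.45 ± 0.91 (SE).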
